A study of Homo sapiens with 6 samples.

Results

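The 9 cancer-related long noncoding RNAs (lncRNAs) MALAT1, NEAT1, GAS5, SNHG1, PVT1, H19, MEG3, HOTAIR and TUG1 were followed in 6 tumors of PC-3, a human prostate cancer cell line that grows without androgens. They were picked by symbol from a table of 24000 gene entries, in which each matched exactly 1 entry. The tumors came from male athymic nude mice, with PC-3 cells carrying a luciferase reporter and implanted into the anterior prostate. Vehicle tumors (n = 3) came from mice given the carrier by mouth and WCE tumors (n = 3) from mice given WCE, an extract of the herb *Wedelia chinensis*; the labels state 10 weeks of treatment for all 6 and no dose. PC-3 is a single line, so the tumors of both groups share its origin, and nude mice lack mature T cells but keep other leukocytes, stroma and vessels.

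These lncRNAs act in different places in the cell. MALAT1 lies in nuclear speckles, the stores of splicing factors, and NEAT1 is the scaffold of paraspeckles, bodies that hold RNA-binding proteins. GAS5 and SNHG1 are hosts of small nucleolar RNAs (snoRNAs), which are cut from their introns and guide modification of ribosomal RNA, while the spliced host RNA is exported and degraded during translation. H19 and MEG3 are imprinted, H19 being expressed from the maternal chromosome next to IGF2. PVT1 neighbors the MYC oncogene. HOTAIR is transcribed within the HOXC cluster and is best known for its binding to the repressive complex PRC2, and TUG1 is a broadly expressed RNA also linked to PRC2.

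The values were FPKM (fragments per kilobase of transcript, scaled to all mapped fragments), which are scaled to length, so that genes of different length can be compared. The libraries were poly(A)-selected, so comparisons between RNAs with and without a usual poly(A) tail are uncertain. No read counts were at hand, so absolute depth was unknown. The steps between low FPKM values gave relative depths of 25.0% to 85.2% of Vehicle replicate 3, with WCE replicate 1 the shallowest. Vehicle replicate 3 and WCE replicate 1 were nearly identical, with a median absolute log2 difference of 0.028 over 1915 abundant entries against 0.095 to 0.247 for the other 14 pairs, so the lncRNAs and the list counts are also given without both of them (2 tumors against 2). Of the entries above 0 in either library of this pair, 0 were seen in WCE replicate 1 alone and 1419 in Vehicle replicate 3 alone, whereas every other pair had at least 329 on each side. The tables do not show whether these libraries come from separate tumors, and n = 3 follows the labels. The epithelial marker list summed to 1334 to 1627 FPKM in Vehicle tumors and 1294 to 1581 in WCE tumors. However, 2 of its 7 markers, the adhesion protein genes EPCAM and CDH1, were lower in WCE tumors without overlap (limma, log2 fold changes −0.73 and −0.47, unadjusted p 0.00889 and 0.0253). Their nearest values, 184.9 and 180 FPKM for EPCAM and 57.8 and 56.5 for CDH1, belong to the nearly identical libraries. Of all tested entries, 6.4% were lower and 6.37% higher in WCE tumors without overlap. Of 7 prostate luminal markers, KLK2 and KLK3, the secreted prostate kallikreins, were at 0 in all 6 tumors, while FOLH1, the prostate membrane antigen, read 4.09 to 9.45 FPKM. TMPRSS2, a membrane protease, read 9.94 to 26.1 FPKM, with every WCE tumor above every Vehicle tumor (limma, unadjusted p 0.0986). Its nearest values, 22.3 and 22.9, again belong to the nearly identical libraries. The part of these shifts in the results below was not tested. The table does not separate reads of the mouse host from those of the tumor cells, and in bulk tumors fewer cells of a type cannot be told apart from less RNA per cell.

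Several of these RNAs end or begin in ways that bear on what a library of polyadenylated RNA holds. MALAT1 and the long form of NEAT1 do not carry a usual poly(A) tail, and their 3′ ends are protected by a triple helix of U-rich motifs and an A-rich tract. The GENCODE v29 transcripts MALAT1-202, with 8708 bases, and NEAT1-202, with 22743 bases (build GRCh38, transcript strand), both hold 2 U-rich motifs ahead of the A-rich tract, shown in capitals and written as DNA. The stretch printed for MALAT1 covers bases 8237 to 8355 of its transcript, whose annotation runs on for 353 bases after it. That for NEAT1 covers bases 22633 to 22743, the last of the transcript.
MALAT1 3′ end: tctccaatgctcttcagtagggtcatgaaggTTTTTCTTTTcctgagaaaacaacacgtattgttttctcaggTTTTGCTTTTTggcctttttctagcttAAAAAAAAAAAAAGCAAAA
NEAT1 long-form 3′ end: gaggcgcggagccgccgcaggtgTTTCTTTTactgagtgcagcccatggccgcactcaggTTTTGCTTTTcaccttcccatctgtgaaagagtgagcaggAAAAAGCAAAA

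The NEAT1 locus in the table is 3735 bases long, far shorter than NEAT1-202. The short form of NEAT1 is polyadenylated near this point, and bases 3676 to 3735 of NEAT1-202 hold the polyadenylation signal, in capitals, ahead of the end of the listed locus. The NEAT1 value below therefore covers the stretch that both forms share and does not tell them apart.
NEAT1 short-form end: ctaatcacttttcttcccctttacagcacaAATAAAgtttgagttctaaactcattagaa

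GAS5 is known as a 5′ TOP RNA, whose start is a C followed by pyrimidines (C or T), the mark by which growth signals regulate the translation of ribosomal protein messages. Of 29 GENCODE v29 transcripts of GAS5, 6 start with C and 3 or more pyrimidines, against 1 of 25 for SNHG1. The annotated starts with the longest such run are shown with the run in capitals, which is 6 bases in GAS5-210 and 5 in SNHG1-203.
GAS5-210 start: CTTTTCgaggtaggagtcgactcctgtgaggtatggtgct
SNHG1-203 start: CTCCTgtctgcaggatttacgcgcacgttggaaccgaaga

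H19 is the precursor of the microRNA miR-675, and the table joins both genes in 1 entry. The mature RefSeq sequences (build GRCh38.p14, minus strand) are printed with the seed, bases 2 to 8, in capitals. The 5p arm lies at chr11:1996800-1996822 and the 3p arm at chr11:1996768-1996787.
hsa-miR-675-5p: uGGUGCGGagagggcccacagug
hsa-miR-675-3p: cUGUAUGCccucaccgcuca

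By FPKM in these poly(A)-selected libraries, the 9 lncRNAs spanned the range from among the highest entries to the limit of detection. NEAT1 was highest, with a mean of 474 FPKM over the 6 tumors and 99.3% of all entries below it. SNHG1 (145 FPKM) and GAS5 (137 FPKM) came next with overlapping ranges, SNHG1 being the higher in 4 of 6 tumors. MALAT1 (40.4 FPKM), TUG1 (38.1 FPKM) and H19 (32.9 FPKM) followed, again with overlapping ranges. PVT1 averaged 10.2 FPKM and was below H19 in 5 of 6 tumors, although their ranges overlapped. HOTAIR (0.427 FPKM) and MEG3 (0.0349 FPKM) were each below the next higher lncRNA in all 6 tumors. Spread within a group also differed between the lncRNAs. The coefficient of variation of TUG1 was 4.88% in Vehicle and 3.58% in WCE tumors, while that of H19 was 42.4% and 84.4%.

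**Figure D1:**
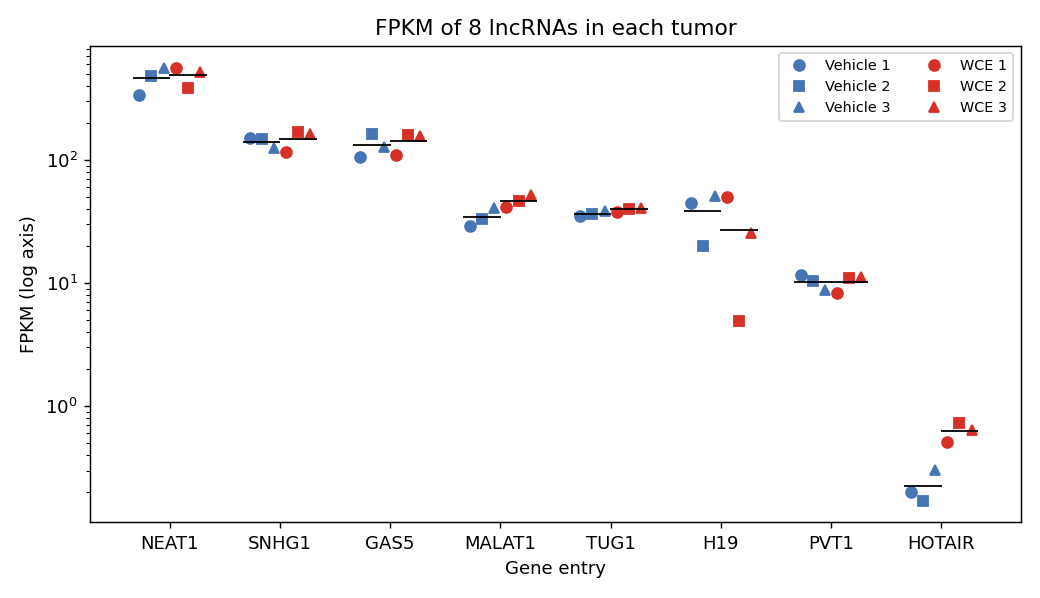
FPKM of 8 lncRNAs (log axis) in each of 6 tumors, Vehicle in blue and WCE in red, with group means as black lines; MEG3 is left out because it was at 0 in 3 tumors. Vehicle and WCE points overlap for NEAT1, SNHG1, GAS5, TUG1, H19 and PVT1, whereas for MALAT1 and HOTAIR every WCE point lies above every Vehicle point.

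To ask whether WCE treatment was accompanied by different levels of these RNAs, log2(FPKM + 1) was tested with limma, a scale that understates the change of low genes. Of the 9, 7 reached the mean of 0.5 FPKM needed to be tested among 13287 entries. None of the 7 passed the adjusted threshold of 0.05 in this limma test, which only 0.00753% of all tested entries did. At an unadjusted p under 0.05, 1 of the 7 was higher in WCE tumors (MALAT1) and 0 were lower, where 3.78% of all tested entries were higher and 3.33% lower. The groups did not overlap, on the higher side, for 1 of 7 and, on the lower side, for 0 of 7, against 6.37% and 6.4% of all tested entries. The median log2 fold change of the 7 was 0.10, and that of all tested entries −0.01. With 2 tumors against 2, MALAT1 was again the 1 member under an unadjusted p of 0.05, where 8.84% of all entries were higher and 9.59% lower. These shares, and those with all 6 tumors, are also the background of the list counts below. With 3 tumors against 3 the exact permutation test can give no p below 0.1, and the labels do not say from how many mice the tumors of a group came, so p-values measure only the spread between these samples.

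**Figure D2:**
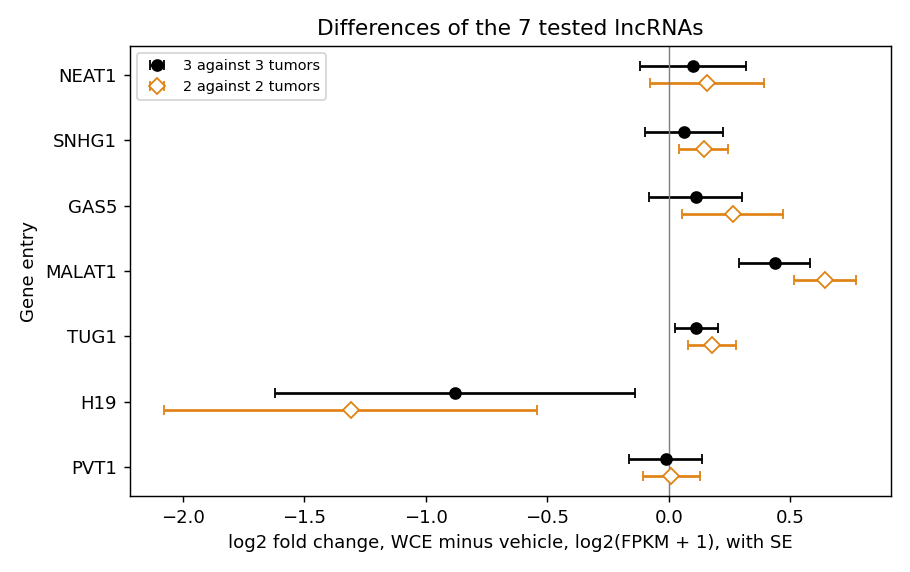
Difference between WCE and Vehicle tumors of the 7 tested lncRNAs in log2(FPKM + 1), with all 6 tumors (black circles) and with the nearly identical pair left out (open orange diamonds); bars are the standard error from limma. MALAT1 stands at 0.43 and 0.64, H19 at −0.88 and −1.31 with the widest bars, and the others between −0.01 and 0.26.

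MALAT1 (chr11:65265233-65273939, hg19 by the submitters' processing notes) was the tested lncRNA with the lowest p, and it was higher in WCE tumors. It measured 28.9, 33.3 and 40.8 FPKM in the Vehicle tumors and 41.3, 46.0 and 52.2 in the WCE tumors. All WCE tumors lay above all Vehicle tumors, but the nearest values, 40.8 and 41.3, belong to the nearly identical libraries. The group means were 34.3 ± 6.00 FPKM (SD, n = 3) and 46.5 ± 5.43 (SD, n = 3), a ratio of 1.35. The log2 fold change was 0.43 with a standard error of 0.15 and a 95% interval of 0.09 to 0.78, and limma gave an unadjusted p of 0.0195 and an adjusted p of 0.623. The exact permutation p was 0.1, the smallest possible. Without the nearly identical pair the log2 fold change was 0.64, with an unadjusted p of 0.00344 and an adjusted p of 0.174 from limma. The call at an unadjusted p rested on individual libraries: with a single tumor left out, limma gave 0.0593 when this was Vehicle replicate 1, 0.0564 for Vehicle replicate 2 and 0.0768 for WCE replicate 3. The host leukocyte markers, most of whose FPKM came from CD68, summed to 26.2 to 47.6 in Vehicle and 41.5 to 51.2 in WCE tumors, while of the other 6, CD74 reached 6.45 FPKM and PTPRC, the pan-leukocyte antigen, stayed under 1. CD68, a lysosomal protein abundant in macrophages, read 25.3, 30.4 and 40 FPKM in Vehicle and 38.7, 39.6 and 43.9 in WCE tumors (limma, log2 fold change 0.37, unadjusted p 0.0562, and 0.57, unadjusted p 0.00712, with 2 tumors against 2). The other 6 went both ways. The ratio of WCE to Vehicle means was 0.85 for PTPRC, 0.94 for LYZ, 0.89 for CSF1R and 0.98 for ITGAM. It was 2.00 for CD14 and 1.73 for CD74, and all but CD74 stayed under 1 FPKM. Whether the CD68 signal came from host leukocytes was not tested. The part of these markers in the MALAT1 difference was not tested.

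The RNAs that encode proteins of the compartment in which MALAT1 lies were present in all tumors. Of 16 speckle and SR protein genes, 1 was higher and 0 lower in WCE tumors at an unadjusted p under 0.05, and the median log2 fold change was 0.11. The 1 was CLK1, the kinase that phosphorylates SR splicing factors, at 35.7, 51.5 and 45.3 FPKM in Vehicle and 47.4, 70.4 and 63.2 in WCE tumors (limma, log2 fold change 0.44, unadjusted p 0.0455, adjusted p 0.623). Its groups overlapped, with WCE replicate 1 below Vehicle replicate 2. SRSF5, an SR splicing factor and the most abundant of the list, read 168, 209 and 176 FPKM in Vehicle and 183, 249 and 245 in WCE tumors (limma, log2 fold change 0.28, unadjusted p 0.0980). With 2 tumors against 2, 4 of the 16 were higher (PNN, SRRM2, SRSF5 and CLK1) and 1 was lower (TRA2A). Of all tested entries, 8.84% were then higher and 9.59% lower, against 3.78% and 3.33% with all 6 tumors.

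NEAT1 (chr11:65190269-65194003) lies 71229 bases before MALAT1, and its groups overlapped. Its values were 337, 482 and 563 FPKM in Vehicle and 559, 386 and 520 in WCE tumors. The lowest value was in Vehicle replicate 1 and the next in WCE replicate 2. The means were 461 ± 115 FPKM (SD, n = 3) and 488 ± 90.4 (SD, n = 3), and the log2 fold change was 0.10 (SE 0.22, 95% interval −0.41 to 0.61; limma, unadjusted p 0.661, adjusted p 0.897). The interval leaves room for a change of the size seen for MALAT1. NEAT1 FPKM exceeded MALAT1 FPKM by 8.39 to 14.5 times, and this ratio was lowest in WCE replicates 2 and 3. Since MALAT1 lacks a usual poly(A) tail and the libraries were poly(A)-selected, the ratio need not be that of the RNAs in the tumors. FRMD8, a FERM domain protein and the entry before NEAT1, showed a small difference (log2 fold change −0.16, unadjusted p 0.180 by limma).

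Paraspeckle protein genes showed small differences beside NEAT1. Of 12, 0 were higher and 0 lower at an unadjusted p under 0.05, with a median log2 fold change of −0.03. HNRNPK, an RNA-binding protein needed for paraspeckle formation and the most abundant of the 12, was at 282, 261 and 227 FPKM in Vehicle and 224, 246 and 230 in WCE tumors. NONO, a core paraspeckle protein, had a log2 fold change of 0.01. With 2 tumors against 2, 0 were higher and 1 was lower: NUDT21, a subunit of the factor that selects polyadenylation sites and so affects the short form of NEAT1, with a log2 fold change of −0.30 (limma, unadjusted p 0.0443).

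The snoRNA hosts GAS5 and SNHG1 were abundant and did not differ beyond the spread between tumors. GAS5 (chr1:173832386-173837125) measured 107, 161 and 127 FPKM in Vehicle and 111, 159.9 and 155 in WCE tumors. Vehicle replicate 1 and WCE replicate 1 were lowest, and the groups overlapped. Means were 132 ± 27.6 FPKM (SD, n = 3) and 142 ± 27.1 (SD, n = 3), with a log2 fold change of 0.11 (SE 0.19; limma, unadjusted p 0.588, adjusted p 0.867).

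SNHG1 (chr11:62619460-62623360) measured 152, 147 and 124 FPKM in Vehicle and 116, 168 and 162 in WCE tumors. WCE tumors were both the lowest and the highest, the lowest being WCE replicate 1. Means were 141 ± 14.7 FPKM (SD, n = 3) and 149 ± 28.5 (SD, n = 3), with a log2 fold change of 0.06 (SE 0.16, 95% interval −0.31 to 0.44; limma, unadjusted p 0.714). Side by side, SNHG1 was 0.911 to 1.42 times GAS5, and 1.05 times in each of the 3 WCE tumors.

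The snoRNAs inside these hosts were mostly not seen, in a table where 271 of 278 SNORD entries were at 0 in all 6 tumors. The GAS5 locus overlaps 11 other entries, of which 10 are C/D box snoRNAs (SNORD44, SNORD47, SNORD74 to SNORD81) and were at 0 throughout. The other entry there, LOC100506046, read 0.607 to 1.59 FPKM. Of 8 snoRNA entries in the SNHG1 locus, 7 were at 0. The eighth, SNORD22, read 0, 86.2 and 104 FPKM in Vehicle and 211, 120 and 131 in WCE tumors (limma, unadjusted p 0.118). The highest SNORD22 value was in the shallowest library, and an FPKM of so short an RNA can rest on very few fragments.

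Of 15 other snoRNA hosts, 1 was higher and 0 lower in WCE tumors at an unadjusted p under 0.05, with a median log2 fold change of −0.03. SNHG11 was at 8.63, 12.1 and 12.2 FPKM in Vehicle and 13.2, 15.8 and 15.6 in WCE tumors, with all WCE tumors above all Vehicle tumors (limma, log2 fold change 0.42, unadjusted p 0.0242, adjusted p 0.623). Its nearest values, 12.2 and 13.2, belong to the nearly identical libraries. SNHG6, the most abundant of the list, stood at 225, 237 and 250 FPKM in Vehicle and 244, 219 and 240 in WCE tumors. Without the nearly identical pair, 2 were higher and 0 lower: SNHG11 (log2 fold change 0.57, unadjusted p 0.0203 by limma) and SNHG7 (log2 fold change 0.29, unadjusted p 0.0352 by limma). SNHG3, SNHG4, SNHG7 and SNHG20 share their entries with other genes and are uncertain.

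The 15 5′ TOP messages outside the ribosomal proteins also gave 0 higher and 0 lower, with a median of 0.02; TPT1, a growth-related protein and the most abundant, had a log2 fold change of −0.03. Of 10 factors of nonsense-mediated decay, the pathway that degrades spliced GAS5, 2 were higher and 0 lower. At the same unadjusted p under 0.05, 3.78% of all tested entries were higher and 3.33% lower. SMG5 was at 39.6, 35.7 and 43.0 FPKM in Vehicle and 43.5, 51.0 and 50.9 in WCE tumors (limma, log2 fold change 0.29, unadjusted p 0.0333). Its nearest values, 43.0 and 43.5, belong to the nearly identical libraries. The adjusted p of SMG5 was 0.623, and UPF1, the central helicase, had a log2 fold change of 0.02. The median of the 10 was 0.00. With 2 tumors against 2 the counts were again 0 and 0 for the 5′ TOP messages and 2 and 0 for the decay factors, with SMG5 at a log2 fold change of 0.43 (limma, unadjusted p 0.00939). Of all tested entries, 8.84% were then higher and 9.59% lower.

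H19 (chr11:2016406-2019065, joined with MIR675) was the most variable of the tested lncRNAs. It measured 44.8, 20.1 and 51.2 FPKM in Vehicle and 50.4, 4.90 and 25.7 in WCE tumors. WCE replicate 2 was lowest by far, Vehicle replicate 2 second lowest, and the highest tumors of both groups, Vehicle replicate 3 and WCE replicate 1, were the nearly identical libraries. Means were 38.7 ± 16.4 FPKM (SD, n = 3) and 27.0 ± 22.8 (SD, n = 3), with a log2 fold change of −0.88 (SE 0.74, 95% interval −2.60 to 0.84; limma, unadjusted p 0.270, adjusted p 0.701). The log2 fold change was 0.00 without WCE replicate 2 and −1.56 without WCE replicate 1, where limma gave an unadjusted p of 0.0494. Without the nearly identical pair it was −1.31 (limma, unadjusted p 0.146).

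The collagen genes COL1A1 and COL3A1 were also lowest in the tumor with the least H19. COL1A1, a fibrillar collagen chain, was at 29.5, 41.5 and 44.0 FPKM in Vehicle and 42.8, 10.4 and 45.7 in WCE tumors. COL3A1, another fibrillar collagen, was at 9.15, 5.81 and 11.2 in Vehicle and 11.7, 1.81 and 7.26 FPKM in WCE tumors. Both were lowest in WCE replicate 2, as was H19. The 9 stromal and endothelial markers summed to 41.9 to 60.8 FPKM in Vehicle and 15.7 to 60.3 in WCE tumors, most of it from COL1A1. The stromal markers COL1A2 and PDGFRB, both low, were also lowest in WCE replicate 2. The smooth muscle actin ACTA2 (1.08 to 2.47 FPKM) was instead lowest in Vehicle replicate 2. The vessel marker PECAM1 (0.86 to 2.95 FPKM) was lowest in Vehicle replicate 1. The vessel markers CDH5 and VWF and the fibroblast marker DCN were below 0.2 FPKM in all 6, and none was lowest in WCE replicate 2. The part of host cells in the H19 values was not tested. IGF2, the imprinted growth factor that shares regulatory elements with H19, behaved differently, at 128, 29.1 and 75.8 FPKM in Vehicle and 76.3, 103 and 67.0 in WCE tumors, with WCE replicate 2 the second highest. Among 7 tested entries of the list of imprinted neighbors and H19-binding proteins, 0 were higher and 0 lower, also with 2 tumors against 2, and the median log2 fold change was 0.05.

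**Figure D3:**
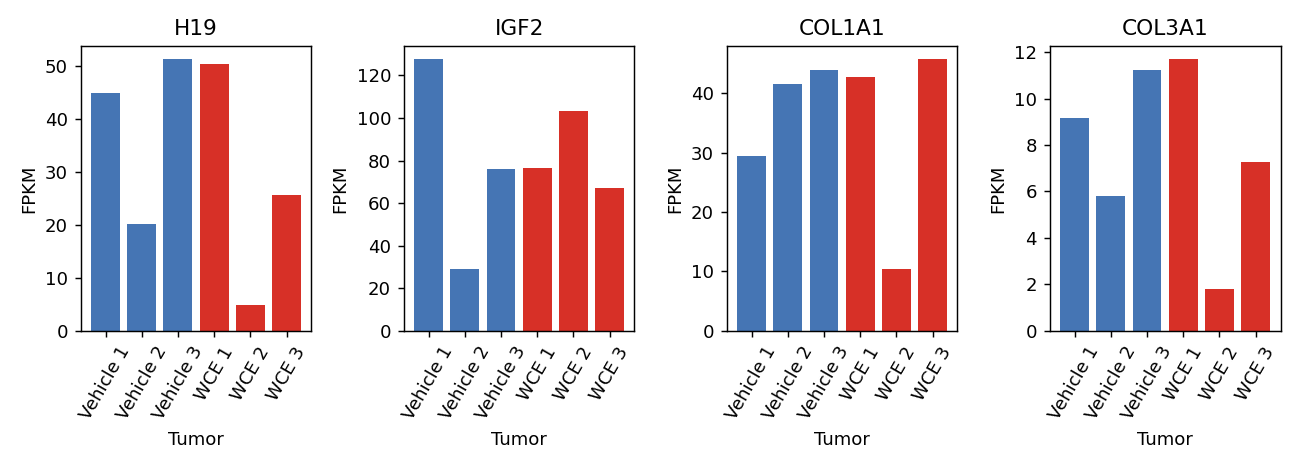
FPKM (linear axes) of H19, IGF2, COL1A1 and COL3A1 in each tumor, Vehicle in blue and WCE in red. WCE replicate 2 is the lowest bar for H19, at 4.90, and for both collagens, and the second highest for IGF2.

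PVT1 (chr8:128806779-129113499) was highest and lowest in the same tumors as its neighbor MYC. PVT1 measured 11.7, 10.4 and 8.71 FPKM in Vehicle and 8.32, 11.1 and 11.2 in WCE tumors. The groups overlapped completely, with means of 10.3 ± 1.5 FPKM (SD, n = 3) and 10.2 ± 1.61 (SD, n = 3). The log2 fold change was −0.01 (SE 0.15; limma, unadjusted p 0.933, adjusted p 0.983). MYC, the transcription factor, was at 145, 112 and 87.2 FPKM in Vehicle and 86.5, 105 and 121 in WCE tumors (limma, log2 fold change −0.12, unadjusted p 0.562). Both genes were highest in Vehicle replicate 1 and lowest in the nearly identical Vehicle replicate 3 and WCE replicate 1, and MYC was 9.47 to 12.4 times PVT1. The 4 microRNA entries within PVT1 were at 0 in all 6 tumors.

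TUG1 (chr22:31365634-31375380) was the steadiest of the 9. It measured 34.8, 36.5 and 38.4 FPKM in Vehicle and 38.0, 40.3 and 40.5 in WCE tumors. Only Vehicle replicate 3 and WCE replicate 1, the nearly identical libraries, crossed. Means were 36.6 ± 1.78 FPKM (SD, n = 3) and 39.6 ± 1.42 (SD, n = 3), and the log2 fold change was 0.11 (SE 0.09, 95% interval −0.09 to 0.32; limma, unadjusted p 0.240). Without the nearly identical pair it was 0.18 (limma, unadjusted p 0.132). Of its flanking entries, the smooth muscle cytoskeletal gene SMTN was higher in WCE tumors, at 29.1, 32.0 and 30.8 FPKM against 21.1, 24.9 and 27.6 (limma, log2 fold change 0.32, unadjusted p 0.0274, adjusted p 0.623). The nearest SMTN values, 27.6 and 29.1, belong to the nearly identical libraries. MORC2, a chromatin-silencing ATPase on the other side of TUG1, had a log2 fold change of 0.24 (limma, unadjusted p 0.0694).

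HOTAIR (chr12:54356096-54362515) was barely expressed, yet its FPKM values separated the groups. It read 0.199, 0.171 and 0.301 FPKM in Vehicle and 0.515, 0.732 and 0.644 in WCE tumors. Every WCE tumor lay above every Vehicle tumor, with means of 0.224 ± 0.068 FPKM (SD, n = 3) and 0.631 ± 0.109 (SD, n = 3), a ratio of 2.82. The nearest values, 0.301 and 0.515, belong to the nearly identical libraries. Without this pair the log2 fold change was 0.51, which was not tested. The mean was below the filter, so HOTAIR was not among the tested entries, and its exact permutation p was 0.1, the smallest possible. The 6.37% of entries higher without overlap covers tested entries only, so it gives no share for entries this low. Of the other cancer-related lncRNAs below the filter, PCAT1 and KCNQ1OT1 also had every WCE tumor above every Vehicle tumor, while the rest did not separate. In a fit without the filter limma gave a log2 fold change of 0.41 and an unadjusted p of 0.00208, and 0 entries of the 24000 passed the adjusted threshold, the lowest adjusted p being 0.114. At an unadjusted p under 0.05 that fit called 1051 entries.

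Multiplied by relative depth, which puts the libraries on a scale of fragments, HOTAIR was 0.129 in Vehicle replicate 1, Vehicle replicate 2 and WCE replicate 1 alike. Vehicle replicate 3 stood 2.33 times above them, WCE replicate 2 4.83 times and WCE replicate 3 4.00 times. WCE replicate 1 thus had the same small amount of HOTAIR signal as Vehicle replicates 1 and 2, and its higher FPKM goes with a depth of 25.0%. WCE replicates 2 and 3 were above all Vehicle tumors on both scales, while WCE replicate 1 was below Vehicle replicate 3 on the scale of fragments.

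**Figure D4:**
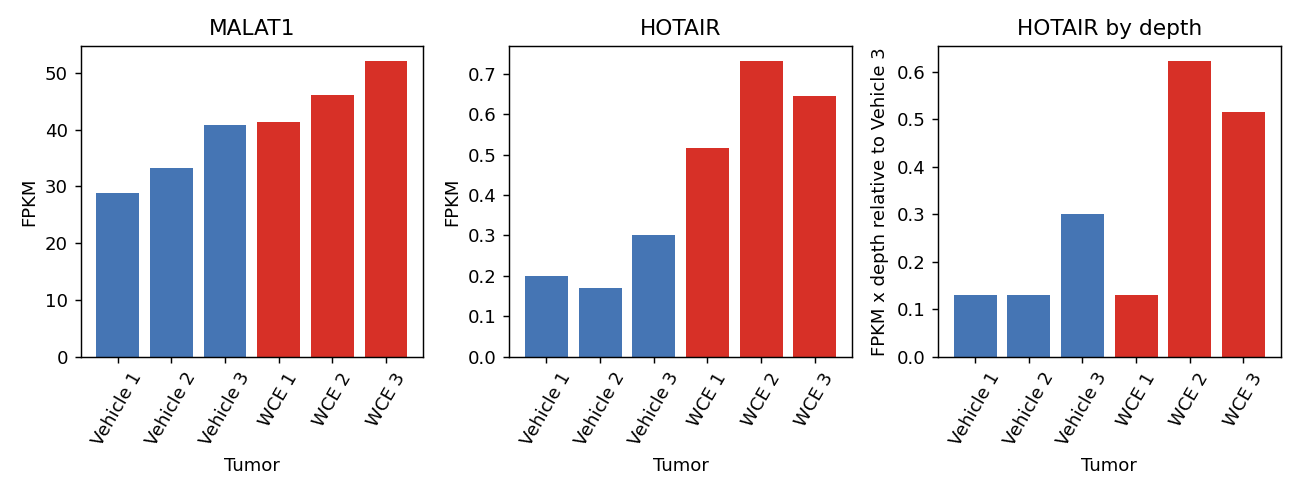
FPKM of MALAT1 (left) and HOTAIR (middle) and HOTAIR FPKM multiplied by depth relative to Vehicle replicate 3 (right) in each tumor, all on linear axes from 0, Vehicle in blue and WCE in red. On the right WCE replicate 1 stands level with Vehicle replicates 1 and 2 at 0.129, and WCE replicates 2 and 3 remain the tallest bars.

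The HOXC genes around HOTAIR, which encode patterning transcription factors, were low as well. Of 7 entries, 5 were tested, 0 were higher or lower at an unadjusted p under 0.05, and the median log2 fold change was 0.19. The joined entry of HOXC4, HOXC5 and HOXC6, the most abundant, read 3.98, 5.64 and 4.63 FPKM in Vehicle and 4.32, 8.56 and 6.70 in WCE tumors. HOXC13 read 3.00, 3.90 and 3.22 in Vehicle and 2.42, 5.42 and 4.61 FPKM in WCE tumors. HOXC11, which lies next to HOTAIR, read 0.155, 0.265 and 0.150 in Vehicle and 0.10, 0.441 and 0.375 FPKM in WCE tumors. WCE replicates 2 and 3 were the highest tumors for these 3 entries, as for HOTAIR. The same held for HOXC9 and HOXC10, both low, with means of 0.732 and 0.743 FPKM over the 6 tumors. It did not hold for HOXC8, at 3.02, 2.97 and 2.29 FPKM in Vehicle and 2.28, 3.35 and 2.74 in WCE tumors (log2 fold change 0.01). WCE replicate 1 was lower than every Vehicle tumor for HOXC11 and HOXC13. With 2 tumors against 2, 2 of the 5 were higher at an unadjusted p under 0.05: the joined HOXC4 entry (limma, log2 fold change 0.58, unadjusted p 0.0319) and HOXC13 (log2 fold change 0.44, unadjusted p 0.0411). Of all tested entries, 8.84% were then higher and 9.59% lower.

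Among 11 genes of PRC2 and the LSD1-CoREST complex, the chromatin partners described for HOTAIR, 1 was higher and 0 lower, with a median log2 fold change of −0.01. EZH1, the less active of the PRC2 methyltransferases, read 3.08, 3.34 and 4.61 FPKM in Vehicle and 4.46, 4.98 and 5.92 in WCE tumors (limma, log2 fold change 0.39, unadjusted p 0.0380, adjusted p 0.623). Its groups overlapped, with WCE replicate 1 below Vehicle replicate 3. EZH1 was again the 1 higher, and 0 were lower, with 2 tumors against 2 (limma, log2 fold change 0.61, unadjusted p 0.0065). EZH2, the main PRC2 methyltransferase, had a log2 fold change of −0.01, and RBBP7, a histone-binding subunit and the most abundant of the list, of −0.08.

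MEG3 (chr14:101292445-101327360) was at the limit of detection. It read 0, 0.0440 and 0.0331 FPKM in Vehicle and 0.133, 0 and 0 in WCE tumors. The 3 values above 0 were equal after multiplication by relative depth, at 0.033, so the 0.133 of WCE replicate 1 is the same signal in a shallower library. No difference in MEG3 could be seen at this depth. Its imprinted neighbors DLK1, a Notch-like surface protein, and MEG8, another lncRNA, were at 0 in 5 and 6 tumors respectively, whereas DIO3, a thyroid hormone deiodinase of the same imprinted cluster, read 3.39 to 5.02 FPKM.

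Other lncRNAs with a reported role in cancer gave a mixed picture. Of 21 found in the table, 11 were tested, with 1 higher, 1 lower and a median log2 fold change of −0.09. LINC00152, the most abundant, was lower in WCE tumors, at 80.3, 57.3 and 67.6 FPKM against 86.2, 87.9 and 88.5 in Vehicle tumors (limma, log2 fold change −0.36, unadjusted p 0.0240, adjusted p 0.623). MIR22HG, host of the microRNA miR-22, was higher, at 19.1, 23.9 and 22.6 FPKM against 11.2, 17.6 and 19 (limma, log2 fold change 0.46, unadjusted p 0.0471, adjusted p 0.623). The groups of both did not overlap, but for MIR22HG the nearest values, 19 and 19.1, belong to the nearly identical libraries. Without the nearly identical pair, 1 was higher (MIR22HG) and 2 were lower, LINC00152 and TERC, the RNA of telomerase (log2 fold change −1.45, unadjusted p 0.0197 by limma). TERC was low, at 5.61, 2.42 and 0.595 FPKM in Vehicle and 0.796, 1.41 and 0.2515 in WCE tumors. Its groups overlapped, and with all 6 tumors limma gave an unadjusted p of 0.101. PCA3 and PCGEM1, lncRNAs of androgen-responsive prostate cells, were at 0 in all 6 tumors.

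**Figure D5:**
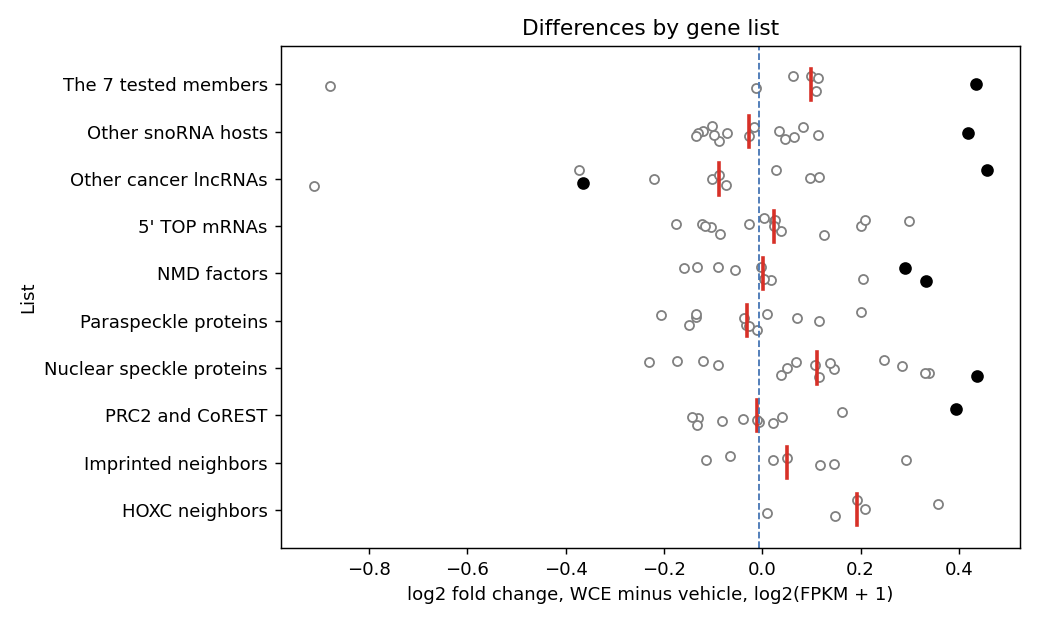
Log2 fold change between WCE and Vehicle tumors of every tested entry in 10 lists, with each list's median as a red bar and the median of all 13287 tested entries as a dashed blue line; filled points have an unadjusted p under 0.05 in limma. MALAT1 is the filled point of the top line at 0.43, and list medians run from −0.09 for other cancer lncRNAs to 0.19 for HOXC neighbors.

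The entries whose pattern over the 6 tumors was most like each lncRNA were sought among 9239 entries with a mean of at least 5 FPKM, as a description. For MALAT1 they were CNTNAP3 and CLSTN3, at a mean absolute difference of 0.037 and 0.039 on the log2 scale, where MALAT1 itself deviated from its mean by 0.23. For NEAT1 they were GRHL1 and TMEM140, for GAS5 TRNAU1AP and FAM46C, and for SNHG1 CAMK2D and SERBP1. PDLIM5 and RECQL4 were nearest to PVT1, and C10orf28 and PREPL to TUG1. The nearest to H19 were the keratin genes KRT16 and KRT17, at 0.24 and 0.25, where H19 itself deviated by 0.87.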

How the data were processed

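RNA-seq of 6 PC-3 tumors, 3 Vehicle and 3 WCE, was analysed, with columns matched to tumors by the sample labels. The authors deposited FPKM values per gene entry, made from stranded poly(A)-selected libraries; the submitters' processing notes name TopHat2 2.0.13, Cufflinks and the builds hg19 and mm10, without saying how each was used. Loci are those of the table, counted from 1. Entries averaging 0.5 FPKM or more were retained (13287 of 24000), and log2(FPKM + 1) was tested by limma-trend (limma 3.58.1, R 4.3.3), two-sided, with Benjamini-Hochberg adjustment. Exact permutation tests were two-sided. Relative depth was the commonest ratio of low FPKM values to those of Vehicle replicate 3; since absolute depth is unknown, counting error cannot be given. The fit was tested on simulated data. Sequences come from GENCODE v29 and RefSeq. Python 3.11.15, numpy 2.4.6, pandas 2.3.3 and matplotlib 3.10.9 were used.

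The lncRNAs and the gene lists were chosen with earlier results of these data known. Within each list, the text names entries with an unadjusted p under 0.05 (at most 4) and the most abundant entry; it also names overlapping and flanking entries and the 2 of most similar pattern. UPF1, NONO, EZH2, HOXC8, HOXC9, HOXC10, HOXC13, NUDT21, DIO3, DLK1, MEG8, PCA3, PCAT1, PCGEM1, KCNQ1OT1, COL1A1, COL3A1, the genes named for 2 tumors against 2 and the markers were added after their values were seen. Alternatives were the pseudocount, filter, scaling, trend, moderation, tumor weights, a replicate block, each tumor left out, and the nearly identical pair left out. Other experiments of the study were not analysed here. Some entries that the rule would name are not reported here.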

Additional observations from a re-analysis of the deposited data

How the results depend on the processing

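The count of entries past the adjusted threshold was 1 (SNORA76) and became 0 without a filter and 0 in the unmoderated test, 5 without Vehicle replicate 3 and WCE replicate 1 together, and 1 to 7 with each tumor left out, the 7 being without WCE replicate 1. The count at an unadjusted p under 0.05 was 944, against 3201 with array weights, 593 unmoderated, 2449 without the nearly identical pair, and 219 to 2033 with each tumor left out. Of the lncRNAs, 1 had an unadjusted p under 0.05, against 2 without a filter (HOTAIR added), 0 unmoderated, and 0 to 2 with each tumor left out. The replicate block gave 1 and 1049 entries and again MALAT1. Same-numbered tumors deviated with correlations of −0.24, 0.16 and −0.09, within the −0.33 to 0.36 of the 6 other pairs. With 3 tumors a group and the nearly identical libraries among them, these correlations cannot decide whether the numbers pair the tumors. MALAT1 had a log2 fold change of 0.43 to 0.51 over 10 alternatives with all 6 tumors, 9 of them under an unadjusted p of 0.05 (0.0618 unmoderated), and 0.32 to 0.56 with each tumor left out, 3 of 6 under it. Signs changed with a tumor left out: GAS5 ranged from −0.031 to 0.28, NEAT1 from −0.11 to 0.26, SNHG1 from −0.035 to 0.23, H19 from −1.56 to 0.0031 and PVT1 from −0.12 to 0.11, while TUG1 stayed between 0.08 and 0.15. PVT1 was also 0.11 with array weights, 0.0048 with upper-quartile scaling and 0.0098 without the nearly identical pair. The cause of these changes was not tested. Summing entries was not run, since each lncRNA has 1. Depth limits HOTAIR and MEG3, which rest on few fragments.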
